A study of Mus musculus with 27 samples.

Results

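The transcripts examined here are the 45S ribosomal RNA precursor (Rn45s), a pair of loci described as collecting reads like ribosomal RNA (Lars2 and Mir6236), the RNA subunits of RNase MRP (Rmrp) and RNase P (Rpph1), and the telomerase RNA (Terc). These 6 genes, out of 24065 in the count table, were chosen by name with their lower counts in Dnmt3b-/- embryos already known. Their difference between the genotypes is therefore a description and carries no test. RNA-Seq libraries were made from 6 whole mouse embryos of the C57BL/6J strain at E8.5, 1 library per embryo. The embryos are described as littermates, with no number of litters given. Of them, 3 were WT and 3 Dnmt3b-/-. The Dnmt3b-/- embryos are homozygous for an allele without catalytic activity, which was made by crossing Dnmt3b-2lox mice to an ACTB-Cre deleter line, active throughout the body. Heterozygous parents carrying the recombined allele were mated, no treatment was applied, and no group was pooled. The total RNA was depleted of ribosomal RNA before library preparation, so that the counts on Rn45s are those of molecules that remained after depletion.

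Rn45s is the long transcript that RNA polymerase I makes from the tandem ribosomal DNA repeats, and it is cut into the mature ribosomal RNAs in the nucleolus. RNase MRP is a ribonucleoprotein that makes one of these cuts, and the related RNase P removes the leader from tRNA precursors. Rmrp and Rpph1 are the catalytic RNAs of these enzymes, which share most of their proteins, and both are transcribed by RNA polymerase III from promoters upstream of the gene. Terc provides the template for telomere repeats and is made by RNA polymerase II. Lars2 encodes the mitochondrial leucyl-tRNA synthetase, and Mir6236 is annotated as a microRNA gene. Growing embryos make ribosomes at a high rate, and telomerase is active in their cells.

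In the GRCm38 (mm10) assembly, Rmrp lies on the minus strand at chr4:43492785-43493059 and is 275 bp long. Rpph1 lies on the minus strand at chr14:50807447-50807771 and is 325 bp long. Terc lies on the minus strand at chr3:96414437-96414833 and is 397 bp long. In the RefSeq annotation these RNAs have a single exon and overlap no other gene. Lars2 is a protein-coding gene on the plus strand at chr9:123366927-123462675 with 4438 bp of exons, and it overlaps Gm46137. Mir6236 covers 123 bp of the plus strand at chr9:110281287-110281409 and overlaps Gm39429. Rn45s was not matched to this annotation, so that no position, length or level per length is given for it.

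The sequences of Rmrp and Rpph1, from RefSeq and the GRCm38 assembly, are shown to compare the subunits of the 2 enzymes. The capitals mark the runs of at least 9 bases that occur in both RNAs, and no chance level was computed for them. CAGCGGGGC occupies bases 184 to 192 of Rmrp and 21 to 29 of Rpph1, and GCAGTGCGA occupies bases 222 to 230 of Rmrp and 250 to 258 of Rpph1. Rmrp is printed whole and Rpph1 up to base 300.
Rmrp: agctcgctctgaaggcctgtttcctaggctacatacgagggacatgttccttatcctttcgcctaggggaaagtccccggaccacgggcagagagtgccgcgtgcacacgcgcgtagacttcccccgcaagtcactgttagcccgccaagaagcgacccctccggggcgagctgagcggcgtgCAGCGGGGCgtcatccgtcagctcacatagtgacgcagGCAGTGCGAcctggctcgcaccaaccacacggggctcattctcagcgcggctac
Rpph1: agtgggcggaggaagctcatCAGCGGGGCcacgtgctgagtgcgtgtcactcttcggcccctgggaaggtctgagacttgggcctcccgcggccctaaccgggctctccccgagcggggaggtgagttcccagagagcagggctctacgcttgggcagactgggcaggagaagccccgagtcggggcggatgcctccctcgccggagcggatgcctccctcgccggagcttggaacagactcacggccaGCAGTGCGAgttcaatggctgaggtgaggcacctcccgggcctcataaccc
The start of Terc, chr3:96414774-96414833 on the minus strand, is shown for its 9-base run CCTAACCCT at bases 2 to 10, in capitals, which is the longest run of these 60 bases found in the complement of the telomere repeat.
Terc: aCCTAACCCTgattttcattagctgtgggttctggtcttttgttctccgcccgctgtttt
The mature microRNA annotated in Mir6236 is shown with its seed, bases 2 to 8, in capitals.
mmu-miR-6236: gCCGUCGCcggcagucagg
The 100 bases before the start of the 3 small RNA genes are shown because these genes moved together in the embryos described next. The motif TATAA was searched on both strands between 250 bases before and 50 bases after the start. The same search was made for the motif CCAAT and for another motif with the letters GGGCGG, and matches within the bases shown are in capitals.
Rmrp upstream: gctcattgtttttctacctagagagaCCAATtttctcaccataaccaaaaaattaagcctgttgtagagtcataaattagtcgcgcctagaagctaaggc
Rpph1 upstream: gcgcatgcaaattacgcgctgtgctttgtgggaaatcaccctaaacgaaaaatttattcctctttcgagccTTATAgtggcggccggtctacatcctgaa
Terc upstream: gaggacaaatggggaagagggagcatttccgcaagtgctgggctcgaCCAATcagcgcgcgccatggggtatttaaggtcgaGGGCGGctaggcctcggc

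No motif searched was found in all 3 promoters. Positions are those of the first base of a match in the direction of the gene, counted from 1 at the start of the transcript and from -1 before it. TATAA matched the strand opposite to the gene at position -29 of Rpph1 and -167 of Rmrp, and it occurs in 24.9% of 32851 RefSeq promoter windows of 300 bases. CCAAT matched Rmrp at position -74 and Terc at position -53, and 37.4% of the windows hold it. GGGCGG matched Terc at position -18 and Rpph1 at position 4, within the transcript, and 35.7% of the windows hold it. The motifs do not overlap each other.

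The raw counts on genes summed to between 41489332 and 58470286 per embryo. The labels were checked on Dnmt3b, whose raw counts were 7120 to 12195 in WT and 3904 to 4196 in Dnmt3b-/- embryos, over all its exons. Of 14 markers of the embryo proper all were detected. In CPM, a count scaled to the total count on genes, their summed level was 629 to 739 CPM in WT and 662 to 720 CPM in Dnmt3b-/- embryos. WT embryo 2 stood apart. It had the highest counts of Rn45s, Lars2 and Mir6236, and it was the only WT embryo with transcripts of the Y chromosome (Ddx3y at 3955 counts against 6 and 0). In Dnmt3b-/- embryos 1, 2 and 3 Ddx3y had 4146, 4 and 4254 counts. In WT embryo 2 the 10 markers of the extraembryonic endoderm, a lineage of the yolk sac, reached 3890 CPM. They were at 469 CPM in WT embryo 3, the lowest WT embryo, and at 240 to 913 CPM in Dnmt3b-/- embryos. WT embryo 1 lay between the other WT embryos and above every Dnmt3b-/- embryo. Of these markers only Amn passed the test between the genotypes (log2 fold change -2.59, adjusted p = 0.0429 by the quasi-likelihood test of edgeR), and Sox7 did not share the pattern (log2 fold change 0.06). The summed markers of trophoblast and decidua stayed at 29.9 to 58.4 CPM in all embryos, with Prl3d1, Prl2c2, Prl8a2 and Tpbpa, 4 of the 12, at 0. The 7 primitive erythroid markers summed to 256 to 1450 CPM in WT and 301 to 914 CPM in Dnmt3b-/- embryos. WT embryo 2 gave the lowest of these sums, 256 CPM, and also the highest Dnmt3b count, 12195. The part of these tissue markers in the results on the 6 RNAs was not tested, and the fold changes and counts of calls are also given without WT embryo 2. Fewer cells of a type and less RNA per cell cannot be told apart in whole embryos.

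Together the 6 genes took a larger share of the library in every WT embryo than in any Dnmt3b-/- embryo. Their summed counts made up 1.75%, 2.73% and 1.26% of all counts in WT embryos 1, 2 and 3, and 0.468%, 0.399% and 0.290% in Dnmt3b-/- embryos 1, 2 and 3. The mean share was 1.91% ± 0.75 (SD, n = 3) in WT and 0.386% ± 0.089 (SD, n = 3) in Dnmt3b-/- embryos, a ratio of 4.96. Without WT embryo 2 the WT mean was 1.5% and the ratio 3.89. The lowest WT share was 2.68 times the highest Dnmt3b-/- share. Rn45s and Rpph1 carried most of these counts.

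**Figure D1:**
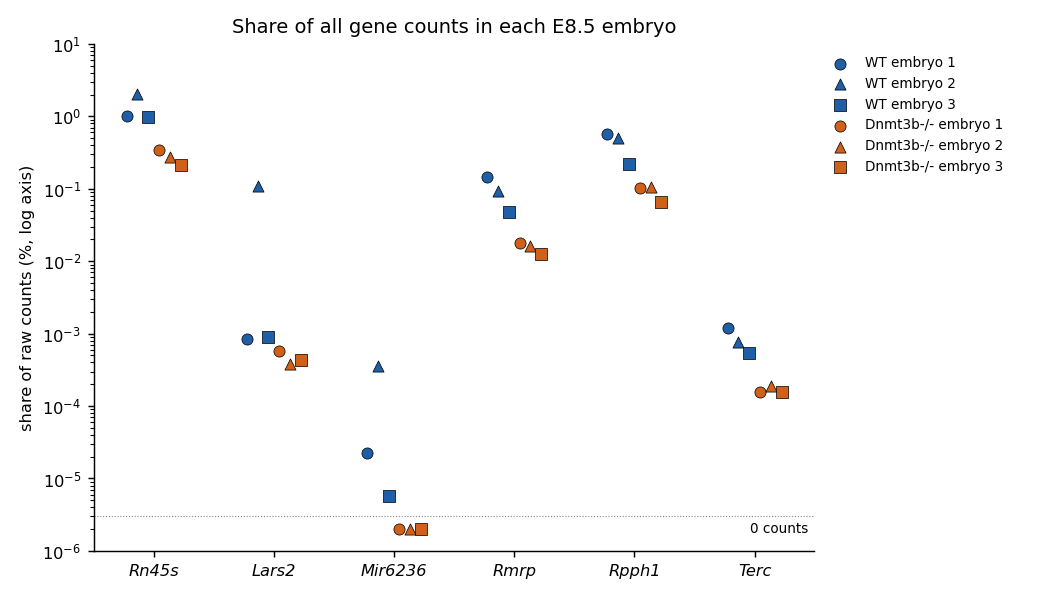
Share of all raw gene counts, in percent on a log axis, of each of the 6 RNAs in each embryo, with 1 point per embryo. All WT points lie above all Dnmt3b-/- points for each RNA, and WT embryo 2 (blue triangle) is far above the other 5 embryos for Lars2 and Mir6236, where the 3 Dnmt3b-/- embryos have 0 counts of Mir6236, drawn below the dotted line.

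Rn45s was among the genes with the most counts in WT embryos. It held 596146, 843348 and 519629 raw counts in WT embryos 1, 2 and 3, and 165783, 117385 and 95731 in Dnmt3b-/- embryos 1, 2 and 3. WT embryo 2 was the highest, and no Dnmt3b-/- embryo reached the lowest WT embryo. By raw count it ranked 2, 1 and 2 among all genes of the WT libraries and 10, 15 and 22 in the Dnmt3b-/- libraries. Its share was 1.35% ± 0.60 (SD, n = 3) of the counts in WT and 0.279% ± 0.067 (SD, n = 3) in Dnmt3b-/- embryos. The fitted log2 fold change of Dnmt3b-/- over WT was -2.21 (standard error 0.30), and -1.76 without WT embryo 2. Within a genotype its share varied by 2.07 times in WT and by 1.63 times in Dnmt3b-/- embryos.

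The counts of Lars2 came almost entirely from 1 library. They were 486, 44840 and 471 in WT embryos 1, 2 and 3, and 275, 162 and 197 in Dnmt3b-/- embryos 1, 2 and 3. WT embryo 2 was 130 times above the lowest WT embryo as a share of counts, while the other 5 embryos lay within a narrow range, with both remaining WT embryos above all Dnmt3b-/- embryos. The fitted log2 fold change was -6.24 (standard error 1.87) with all embryos and -0.80 without WT embryo 2. The fit with the replicate number as a block gave -2.45 and limma-trend gave -3.15. Per length, Lars2 was at 244 FPKM in WT embryo 2, at 1.87 and 2.01 FPKM in the other WT embryos and at 0.860 to 1.30 FPKM in Dnmt3b-/- embryos, FPKM being the count scaled to exon length and to the total count on genes. The cytosolic counterpart of this enzyme, Lars, held 10993, 8541 and 10536 counts in WT and 7400, 6341 and 6305 counts in Dnmt3b-/- embryos (log2 fold change -0.34, adjusted p = 0.00667 by the quasi-likelihood test of edgeR), and WT embryo 2 did not stand apart.

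Mir6236 was also highest in WT embryo 2, at much lower counts. It held 13, 146 and 3 counts in WT embryos 1, 2 and 3, and 0 in each Dnmt3b-/- embryo. Against a limit of 3 counts per Dnmt3b-/- library, which a count of 0 allows, it was at least 18.2-fold lower. Without WT embryo 2 this bound fell to at least 1.96-fold lower, and WT embryo 3 itself lies at the limit. The limit covers counting error only, since several read pairs may come from a single molecule.

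The last exon of Lars2 and the Mir6236 gene both resemble other parts of the genome. The exon lies at chr9:123461499-123462675 and is 1177 bp long, of which the last 997 bp are noncoding. A BLAST search of this exon against GRCm38 gave 117 matches of at least 50 bases outside the exon, on 21 chromosomes. Sequences outside the assembled chromosomes were kept and, where matched, counted together as 1 chromosome, so a locus may be counted more than once. The matches covered bases 293 to 691 and 1004 to 1111 of the exon, beyond its 180 coding bases. Their median identity was 81.9% and the highest 98.8%. The deepest part, bases 326 to 355, was covered by 57 matches. Mir6236 had 5 such matches over its bases 1 to 84, with identities of 81.7% to 90.0%. At 2 other loci, chr9:3257784-3258844 and chr14:19278233-19279289, sequence resembling Mir6236 and sequence resembling the Lars2 exon lay next to each other on the same strand, 854 and 852 bp apart. No ribosomal DNA sequence was used here, so that neither gene was placed on the ribosomal RNAs. The methods do not state how reads with several genome positions or the strand were treated in the counting, and the counts of Lars2 and Mir6236 are uncertain for this reason.

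**Figure D2:**
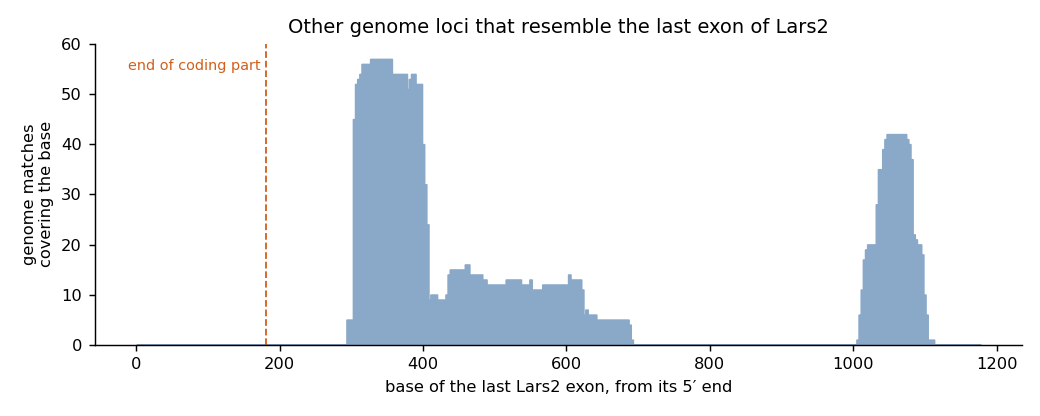
Number of genome matches outside Lars2 that cover each base of its last exon, counted from the 5′ end of the exon. The matches begin after the coding part, which ends at base 180 (dashed line), and reach 57 near bases 326 to 355.

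The loci did not keep a fixed ratio to Rn45s. Per 1000 counts of Rn45s, Lars2 had 0.815, 53.2 and 0.906 counts in WT embryos 1, 2 and 3, and 1.66, 1.38 and 2.06 counts in Dnmt3b-/- embryos 1, 2 and 3. In the other 5 embryos the ratio was thus lower in WT than in Dnmt3b-/-, while WT embryo 2 was far above all of them. Mir6236 had 0.0218, 0.173 and 0.00577 counts per 1000 counts of Rn45s in WT embryos 1, 2 and 3, again highest in WT embryo 2.

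Rpph1 and Rmrp, the RNAs of the processing enzymes, were abundant in all embryos and lower in each Dnmt3b-/- embryo. Rpph1 held 339158, 206823 and 117611 counts in WT embryos 1, 2 and 3, and 49057, 45003 and 29172 counts in Dnmt3b-/- embryos 1, 2 and 3. WT embryo 1 was the highest and WT embryo 3 the lowest of the WT embryos, still 2.10 times above the highest Dnmt3b-/- embryo as a share of counts. The fitted log2 fold change was -2.18 (standard error 0.33), and -2.05 without WT embryo 2. Per length, Rpph1 was at 13347 ± 5761 FPKM (SD, n = 3) in WT and 2805 ± 705 FPKM (SD, n = 3) in Dnmt3b-/- embryos.

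Rmrp showed the same order of embryos within WT at a lower level. Its counts were 85884, 38324 and 25081 in WT embryos 1, 2 and 3, and 8393, 6824 and 5624 in Dnmt3b-/- embryos 1, 2 and 3. The genotypes did not overlap, and the shares spread by 3.09 times among WT embryos against 1.41 times among Dnmt3b-/- embryos. The fitted log2 fold change was -2.56 (standard error 0.35), and -2.57 without WT embryo 2. Per length, Rmrp was at 3476 ± 1809.7 FPKM (SD, n = 3) in WT and 559 ± 95 FPKM (SD, n = 3) in Dnmt3b-/- embryos, below Rpph1 in every embryo.

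Terc, the template RNA of telomerase, was far less abundant. It held 706, 321 and 285 counts in WT embryos 1, 2 and 3, and 75, 80 and 71 counts in Dnmt3b-/- embryos 1, 2 and 3. The Dnmt3b-/- embryos were close to each other, within 1.20 times as shares of counts, and the lowest WT embryo was 2.86 times above the highest of them. The fitted log2 fold change was -2.25 (standard error 0.31), and -2.29 without WT embryo 2. Per length, Terc was at 21.2 ± 8.5 FPKM (SD, n = 3) in WT and 4.22 ± 0.46 FPKM (SD, n = 3) in Dnmt3b-/- embryos.

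The order of levels per length was Rpph1, Rmrp, Terc, Lars2 and Mir6236 in 5 of the 6 embryos. In WT embryo 2, Lars2 at 244 FPKM and Mir6236 at 28.6 FPKM were above Terc at 19.5 FPKM. Over the 3 WT embryos, the levels of Terc, Lars2 and Mir6236 did not differ beyond a spread that came mainly from WT embryo 2. In WT embryos 1 and 3, Terc was at 30.4 and 13.6 FPKM and Lars2 at 1.87 and 2.01 FPKM. Mir6236 was at 1.81 and 0.462 FPKM there, close to Lars2 in WT embryo 1. Rpph1 was above Rmrp, and Rmrp above Terc, in every embryo.

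Over the 6 embryos together, the ratios of Rmrp and Terc to Rpph1 spanned less than the shares of Rmrp and Terc. The spans of the shares hold the difference between the genotypes by which these RNAs were chosen. Rmrp had 253, 185 and 213 counts per 1000 counts of Rpph1 in WT embryos 1, 2 and 3, and 171, 152 and 193 counts in Dnmt3b-/- embryos 1, 2 and 3. The ranges of the genotypes overlapped, and the highest ratio was 1.67 times the lowest, while the share of Rmrp itself spanned 11.8 times over the 6 embryos. Terc had 2.08, 1.55 and 2.42 counts per 1000 counts of Rpph1 in WT embryos 1, 2 and 3, and 1.53, 1.78 and 2.43 counts in Dnmt3b-/- embryos 1, 2 and 3. Here too the genotypes overlapped, and the ratio spanned 1.59 times against 7.69 times for the share of Terc. Within a genotype, the shares of Rmrp and Terc varied by 3.09 and 2.24 times in WT and by 1.41 and 1.20 times in Dnmt3b-/- embryos. In Dnmt3b-/- embryos the ratio of Terc to Rpph1, from 1.53 to 2.43, thus varied more than the share of Terc. Over the 6 embryos, Pearson's r of the log2 levels was 0.97 to 0.99 among these 3 RNAs, as a description over points that share the contrast by which the RNAs were chosen.

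The ratios of these RNAs to Rn45s set WT embryo 1 apart from the others. Rmrp had 144, 45.4 and 48.3 counts per 1000 counts of Rn45s in WT embryos 1, 2 and 3, and 50.6, 58.1 and 58.7 counts in Dnmt3b-/- embryos 1, 2 and 3. Rpph1 had 569, 245 and 226 counts per 1000 counts of Rn45s in WT embryos 1, 2 and 3, and 296, 383 and 305 counts in Dnmt3b-/- embryos 1, 2 and 3. For Terc the ratio was 1.18 in WT embryo 1, between 0.381 and 0.548 in the other WT embryos and between 0.452 and 0.742 in Dnmt3b-/- embryos. For Rmrp and Rpph1, WT embryo 1 was above and WT embryos 2 and 3 were below every Dnmt3b-/- embryo. The ratios to Rn45s therefore had no common direction between the genotypes.

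**Figure D3:**
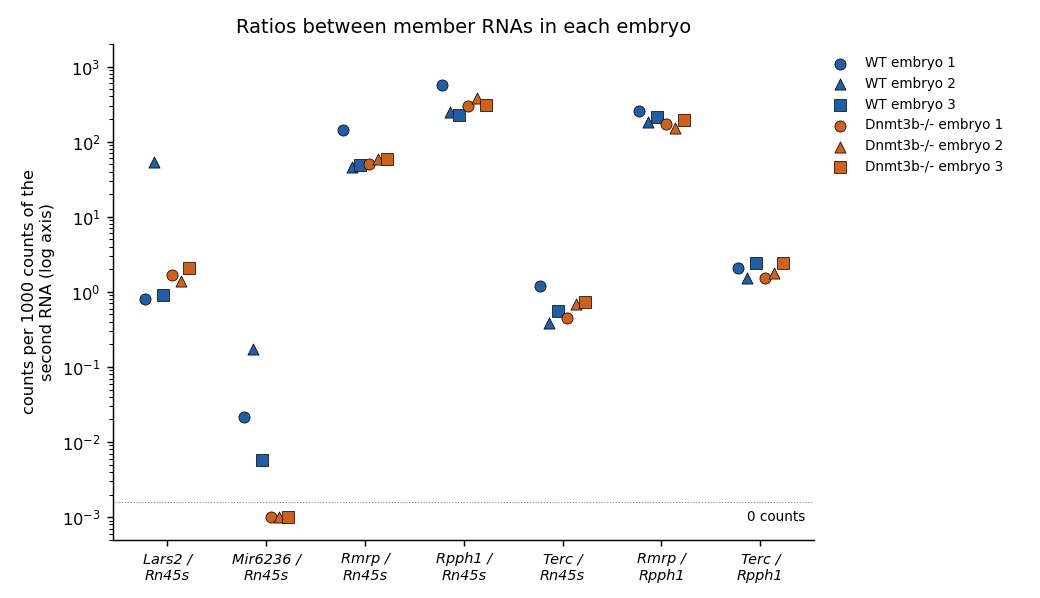
Counts of the first RNA per 1000 counts of the second, on a log axis, with 1 point per embryo. The ratios of Rmrp and Terc to Rpph1 span 1.67 and 1.59 times over all embryos, WT embryo 2 (blue triangle) stands out for Lars2 at 53.2, and WT embryo 1 (blue circle) for Rmrp, Rpph1 and Terc over Rn45s. Ratios of 0 counts are drawn below the dotted line.

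The table as a whole gives the background to these values. Of the 15114 genes whose counts averaged 10 or more, 3.78% were called lower and 2.12% higher by the quasi-likelihood test of edgeR, where a call needs both a fold change over 2 and an adjusted p under 0.05. These are 571 lower and 320 higher genes. With total counts in place of the TMM scaling they were 710 and 246, and without WT embryo 2 they were 538 and 312. For 26.5% of the tested genes every Dnmt3b-/- embryo was below every WT embryo, and all 6 of the RNAs described here are such genes by selection.

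The calls in the table followed base composition, and the small RNAs are rich in GC. Rmrp has 63.6% GC, Rpph1 66.8% and Terc 66.8%. Among 789 other tested genes with an exonic GC content of 60 to 70%, the median log2 fold change was -0.67, and 21.3% were called lower. Among the 32 of these that are at most 500 bp long, the median was -0.80 and 34.4% were called lower. For 3350 genes under 45% GC the median was 0.32, and 0.179% were called lower. After removal of a smooth trend on length and GC content in every library, the log2 fold change was -1.65 for Rmrp, -1.25 for Rpph1 and -1.32 for Terc, so that each stayed lower in Dnmt3b-/- embryos by a smaller amount. Lars2, at 50.9% GC, stayed at -6.20, and Rn45s could not be corrected for lack of an exon length. Over the whole table, this removal left 133 genes called lower and 307 called higher, against 571 and 320 without it. The part of base composition and length in the remaining differences was not tested.

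**Figure D4:**
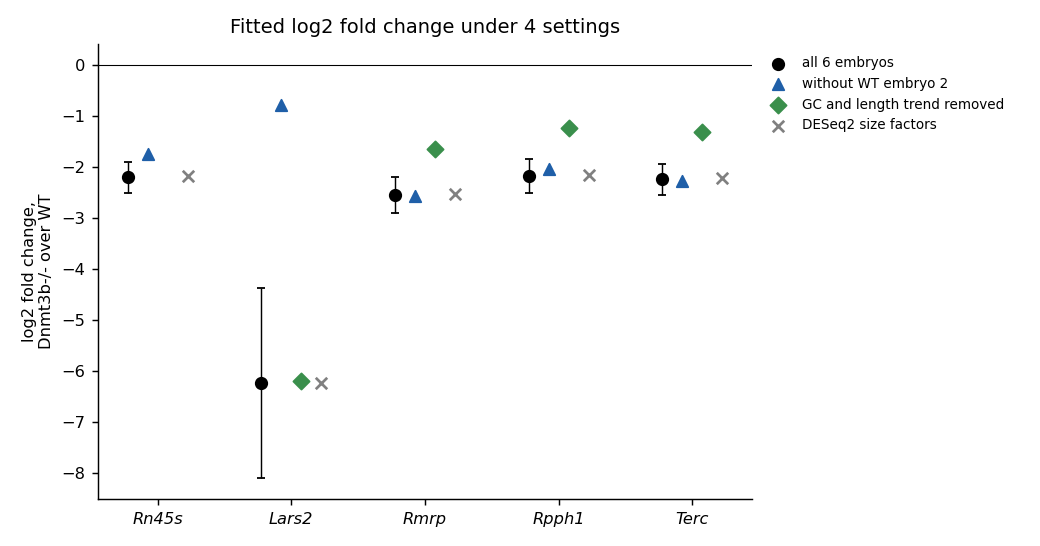
Fitted log2 fold change between the genotypes (Dnmt3b-/- over WT) for the RNAs with counts in both genotypes, under 4 settings; bars are the standard error of the fit to all 6 embryos. Lars2 moves from -6.24 to -0.80 without WT embryo 2, and Rmrp, Rpph1 and Terc move to between -1.65 and -1.25 with the GC and length trend removed, a setting without a value for Rn45s.

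The neighbours were the nearest gene of the count table on each side of the RNAs with a position. Ccdc107, which starts 281 bp from Rmrp on the other strand, had 380, 275 and 377 counts in WT and 238, 224 and 207 counts in Dnmt3b-/- embryos (log2 fold change -0.37, adjusted p = 0.0985 by the quasi-likelihood test of edgeR). Parp2, a DNA repair enzyme gene that starts 126 bp from Rpph1 on the other strand, had 3611, 2639 and 3316 counts in WT and 2970, 2864 and 3630 counts in Dnmt3b-/- embryos (log2 fold change 0.24, adjusted p = 0.136 by the same test). Neither passed the test. Limd1, 15986 bp from Lars2, was lower by the same test (log2 fold change -0.38, adjusted p = 0.00792), with 3460 counts in WT embryo 2 against 5511 and 5316 in the other WT embryos. On the other side of Lars2, Tmem158, 106138 bp away, was higher (log2 fold change 0.77, adjusted p = 0.0125 by this test), with 531, 257 and 345 counts in WT and 508, 497 and 574 counts in Dnmt3b-/- embryos. Ccnb1ip1, 11719 bp from Rpph1 on the same strand, was also higher (log2 fold change 3.02, adjusted p = 0.0142), from low counts of 3, 4 and 2 in WT to 13, 14 and 37 in Dnmt3b-/- embryos. Thus the neighbours that passed the test differed in direction. Cspg5 and Elp6, on either side of Mir6236, did not pass (log2 fold changes of -0.24 and -0.25). Sit1 near Rmrp and Fcgr1 near Terc had 0 counts in all embryos, and BC107364 near Terc had too few counts to be tested.

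The genes whose levels were most like those of each RNA over the 6 embryos are given as a description. All of them share the same 6 libraries and the contrast between the genotypes. For Rn45s they were Plin3, Vat1 and Cers2, with Pearson's r of 0.997 to 0.998 for log2 CPM. For Lars2 they were Hesx1, Mir6236 and Derl2 (r of 0.993 to 0.999), and for Mir6236 they were Hesx1, Gldc and Lars2 (r of 0.995 to 0.997). Lars2 and Mir6236 are thus each among the 3 genes most like the other, although r between them was 0.69 without WT embryo 2. For Rmrp they included Gm17296 and the small nucleolar RNA Snora78 (r of 0.996 and 0.994), and for Rpph1 they were the splicing factor gene Prpf8, the dynein gene Dync1h1 and Snapc4 (r of 0.997 to 0.999). For Terc they were Tcof1, Rmrp and Sfxn3 (r of 0.991 to 0.996). Tcof1 encodes treacle, a nucleolar factor of ribosomal RNA transcription, and Snapc4 a subunit of the complex that binds small nuclear RNA promoters. Tcof1 and Snapc4 had log2 fold changes of -0.28 and -0.39. With the GC and length trend removed these were 0.26 and -0.02, so that Tcof1 changed direction.

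The proteins that act with these RNAs did not move in 1 direction. Of 111 tested genes in 7 lists of such proteins, 31 were higher (27.9%) and 37 were lower (33.3%) in Dnmt3b-/- embryos at an adjusted p below 0.05 in the fit to all genes by edgeR, and 43 did not pass. Of all tested genes, 17.6% were higher and 18.1% lower by this rule. The median log2 fold change over the lists was 0.00, against -0.03 for all tested genes. By the rule with a fold change above 2, 3 of the 111 were called higher and 5 lower. Without WT embryo 2, 31 were higher and 34 lower at an adjusted p below 0.05. With the GC and length trend removed, these counts were 20 and 19. Adjusted p-values given for these genes are from the quasi-likelihood test of edgeR, over all 15114 genes. Their log2 fold changes below are without removal of the GC and length trend, unless stated. With it removed many came closer to 0, such as Taf1d (from 0.68 to 0.10), Ssb (from 0.83 to 0.22), Rrp9 (from -0.69 to -0.10) and Sars2 (from -0.76 to -0.18). Others kept their size, such as Pop4 (from 1.29 to 1.22), Ears2 (from -1.03 to -1.06) and Znrd1 (from 0.57 to 0.64).

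**Figure D5:**
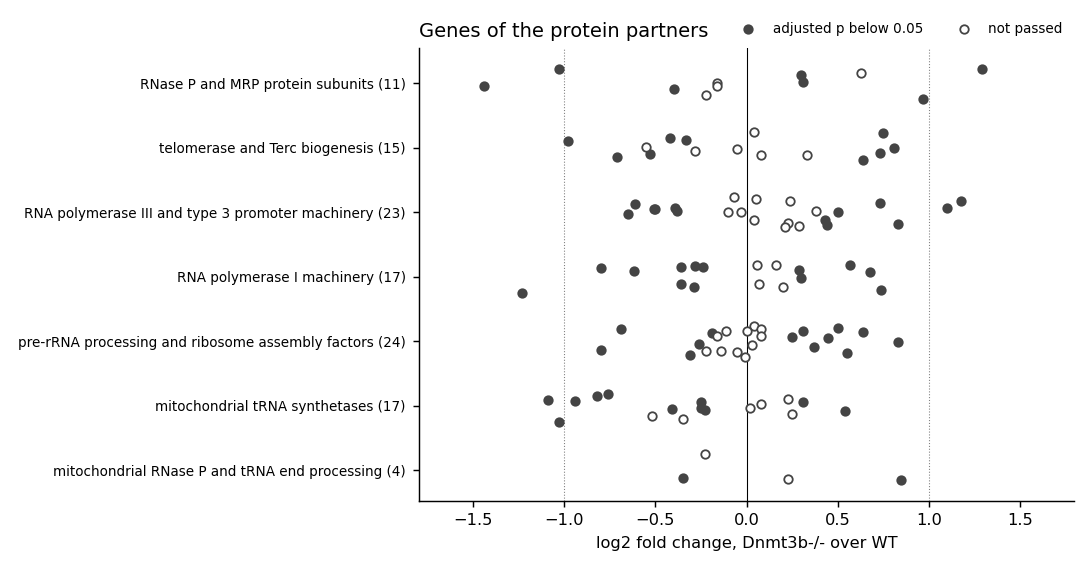
Log2 fold change between the genotypes (Dnmt3b-/- over WT) for each tested gene of the 7 lists of protein partners, with 1 point per gene, the number of genes in brackets and dotted lines at a fold change of 2; vertical scatter only separates the points. Filled points passed an adjusted p below 0.05, 31 to the right and 37 to the left of 0.

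Among the 11 protein subunits of RNase P and RNase MRP, 4 were higher and 3 lower. Pop4, a subunit of both enzymes, rose from 82.1 ± 12 to 189 ± 26 FPKM (SD, n = 3 each), with a log2 fold change of 1.29 (adjusted p = 0.000825). Rpp38, which binds the RNA subunits, rose by 0.97 on the log2 scale. Rpp30 and Rpp40 had log2 fold changes of 0.31 and 0.30, which became -0.17 and 0.09 with the GC and length trend removed, so that Rpp30 changed direction. Rpp25l fell from 20.0 ± 3.2 to 6.99 ± 0.33 FPKM (SD, n = 3 each), with a log2 fold change of -1.44 (adjusted p = 0.000616). Pop7 and Rpp14 had log2 fold changes of -1.03 and -0.40. Pop1, the largest subunit, was not called (log2 fold change -0.16, adjusted p = 0.203). The summed level of the 11 genes was 353 to 361 CPM in WT and 438 to 516 CPM in Dnmt3b-/- embryos. The rise of this sum lay in Pop4, which had 6318, 4486 and 4375 counts in WT and 9526, 9718 and 11787 counts in Dnmt3b-/- embryos.

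Of the 15 genes of telomerase and Terc biogenesis, 4 were higher and 5 lower. Tert, the reverse transcriptase that copies the Terc template, had 353, 205 and 270 counts in WT and 181, 202 and 86 counts in Dnmt3b-/- embryos. It was not called (log2 fold change -0.55, adjusted p = 0.197), and its highest Dnmt3b-/- count of 202 was close to its lowest WT count of 205. Dkc1, the dyskerin that stabilises Terc, rose by 0.73 on the log2 scale (adjusted p = 0.00172), with 18525, 12472 and 16955 counts in WT and 20686, 20861 and 24617 counts in Dnmt3b-/- embryos. Papd5, a polymerase that adds oligo(A) tails to RNAs such as Terc, rose by 0.81, Pinx1, a telomerase inhibitor, by 0.75 and Naf1, an assembly factor, by 0.64. Wrap53, which brings telomerase RNA to Cajal bodies, had a log2 fold change of -0.71. Nhp2 and Nop10, which form the Terc particle with dyskerin, had log2 fold changes of -0.42 and -0.53. Ruvbl2, an assembly ATPase, had one of -0.33, which turned to 0.12 with the GC and length trend removed.

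RNA polymerase III and the factors of its upstream promoters were measured as 23 genes, with 7 higher and 6 lower. Tbp, the TATA-binding protein, rose from 27.3 ± 1.2 to 58.3 ± 4.0 FPKM (SD, n = 3 each), with a log2 fold change of 1.18 (adjusted p = 0.000362). Polr3g, a subunit of the embryonic form of the polymerase, rose by 1.10 on the log2 scale, Ssb, the La protein that binds new transcripts of this polymerase, by 0.83 and Zfp143, an activator of such promoters, by 0.50. Maf1, a repressor of the polymerase, had a log2 fold change of -0.61, and Polr3a and Snapc4 had -0.38 and -0.39.

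RNA polymerase I, which makes Rn45s, was represented by 17 genes, with 5 higher and 8 lower. The lower genes included the subunits Polr1c, Polr1b and Polr1d, with log2 fold changes of -0.80, -0.62 and -0.29. Taf1c, a subunit of the promoter selectivity factor, fell from 3.29 ± 0.19 to 1.34 ± 0.35 FPKM (SD, n = 3 each), with a log2 fold change of -1.23 (adjusted p = 0.00211). The higher genes included Twistnb and Znrd1, also subunits, at 0.74 and 0.57, and Taf1d and Ttf1 at 0.68 and 0.29. Ubtf and Rrn3, the factors that bind the promoter and recruit the polymerase, were not called, with log2 fold changes of 0.06 and 0.16.

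The 24 factors of pre-ribosomal RNA processing had 8 higher and 5 lower genes. Npm1, a nucleolar chaperone, rose by 0.83 on the log2 scale with 241320 to 331045 counts in WT and 370702 to 507249 in Dnmt3b-/- embryos, although its processed pseudogenes may share reads with it. Xrn2, an exonuclease of the spacers, rose by 0.37, Nop58, a core protein of box C/D particles, by 0.64 and Cirh1a, a small subunit assembly factor, by 0.45. Bop1, a large subunit assembly factor, had a log2 fold change of -0.80 and Rrp9 one of -0.69. Emg1 and Nob1, of the small subunit, had -0.26 and -0.31.

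Mitochondrial tRNA synthetases, the family of Lars2, had 2 higher and 9 lower genes among 17. Aars2, Vars2, Ears2 and Sars2 had the smallest adjusted p-values among the lower genes, with log2 fold changes of -1.09, -0.82, -1.03 and -0.76. Iars2 and Wars2 rose by 0.31 and 0.54. Gars and Kars, which encode both cytosolic and mitochondrial enzymes, are counted in the list and were lower, with log2 fold changes of -0.25 and -0.23. No gene of this list repeated the excess of Lars2 in WT embryo 2, and the summed level of the list was 1198 to 1258 CPM in WT and 997 to 1019 CPM in Dnmt3b-/- embryos. The mitochondrial RNase P, a protein enzyme without an RNA subunit, and the enzyme of the other tRNA end gave 1 higher and 1 lower of 4 genes, Trmt10c at 0.85 and Elac2 at -0.35.

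Most of the other short noncoding RNAs listed have no entry among the counted genes, so their levels are not known. Of 33 listed, 12 are in the table, 6 of these were at 0 in every embryo, and 4 passed the filter. Rnu12, a small nuclear RNA of the minor spliceosome, had 158, 78 and 147 counts in WT and 41, 55 and 29 counts in Dnmt3b-/- embryos (log2 fold change -1.32, adjusted p = 0.0176). Rnu11, of the same spliceosome, had 421, 149 and 134 counts in WT and 248, 223 and 114 counts in Dnmt3b-/- embryos, and was not called (log2 fold change 0.03, adjusted p = 0.961). Rnu73b and Rn4.5s were not called either (log2 fold changes -0.52 and 1.71, adjusted p = 0.410 and 0.157). Vaultrc5, an RNA of the vault particle, did not pass the filter, with 19, 0 and 2 counts in WT and 0 in each Dnmt3b-/- embryo.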

How the data were processed

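RNA-Seq libraries of 3 WT and 3 Dnmt3b-/- E8.5 embryos were prepared from total RNA with ribosomal RNA depletion and a stranded kit, and the methylation libraries (21) were not used here. Per the labels, reads were aligned to mm10 with TopHat2 2.0.12 and counted in RefSeq exons with HTSeq 0.6.0. The authors deposited raw counts of 24065 genes, without normalization, and a normalized signal that is the count divided by a size factor of DESeq2 1.4.5. The signal was used only for an alternative share of counts. The deposited table also holds the log2 fold changes and adjusted p-values of the authors' own comparison, which were not used.

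Counts were scaled by TMM and tested by the quasi-likelihood method of edgeR 4.0.16 (R 4.3.3) for genes averaging 10 or more counts, with Benjamini-Hochberg adjustment. The standard error is the log2 fold change divided by the square root of F. Shares are raw counts over the total on genes. FPKM values were computed here with RefSeq exon lengths, and 23866 genes (99.2%) were matched to the annotation. Genome matches were found with BLAST+ 2.17.0 at an E-value of at most 1e-05. Nothing states that replicates came from separate litters, so p-values measure the spread between embryos. The main fit did not pair embryos by replicate number. The fits were tested on simulated data.

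The 6 RNAs and all gene lists were chosen with earlier results of these data known. Of each list up to 4 passing genes in each direction were named, by adjusted p, and for each RNA the 3 genes with the highest Pearson's r, except for items that are not reported here. Amn, Sox7, Pop1, Ubtf, Rrn3, Gars, Kars, Vaultrc5 and the neighbours were named after their values were seen. Alternatives were DESeq2 1.42.0 and its size factors, limma-trend (limma 3.58.1, prior count 1), total counts, no filter, a filter at an average of 50 counts, a replicate block, a spline on GC content and length (5 degrees of freedom each), scaling without Rn45s, Lars2 and Mir6236, and each embryo left out.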

Additional observations from a re-analysis of the deposited data

How the results depend on the processing

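By selection, all 6 RNAs were lower in every Dnmt3b-/- embryo than in every WT embryo, which left little room for a change of sign. The log2 fold changes of Rn45s, Lars2, Rmrp, Rpph1 and Terc were negative under every alternative run. With each embryo left out in turn they ranged from -2.39 to -1.76 for Rn45s, -6.82 to -0.80 for Lars2, -2.89 to -2.13 for Rmrp, -2.5 to -1.93 for Rpph1 and -2.49 to -1.90 for Terc, and the log2 bound of Mir6236 ranged from -4.75 to -0.97. The values for Lars2 and Mir6236 nearest to 0 are those without WT embryo 2. For Lars2, limma-trend gave -3.15. With the GC and length trend removed, the log2 fold changes were -1.65 for Rmrp, -1.25 for Rpph1 and -1.32 for Terc. This setting left 133 genes called lower, and 20 protein partner genes higher and 19 lower; the cause was not tested. No bound of Mir6236 under it was computed, and it has no value for Rn45s. At an adjusted p below 0.05, the number of lower protein partner genes fell from 37 to 21 without Dnmt3b-/- embryo 2. Without WT embryo 1 it was 24, and over the embryos left out it ranged from 21 to 34. Each such fit has fewer samples.

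Embryos with the same replicate number did not deviate together, with correlations of -0.049, -0.147 and -0.013 for numbers 1, 2 and 3. With 3 embryos per genotype, these values cannot show whether such embryos shared a litter or a preparation. With the replicate block, 265 genes were called higher and 516 lower, Lars2 had a log2 fold change of -2.45, and 25 protein partner genes were higher and 30 lower. With the replicate block and the GC and length trend removed together, 112 genes were called lower, 14 protein partner genes were higher and 13 lower, and the log2 fold changes were -2.39 for Lars2, -1.54 for Rmrp, -1.17 for Rpph1 and -1.29 for Terc. The depth limits Mir6236 most, whose counts in WT embryos 1 and 3 were 13 and 3.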
